A study of Mus musculus with 6 samples.

Results

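The genes described here encode 10 subunits of the machinery through which proteins enter the endoplasmic reticulum (ER): Spcs1, Spcs2 and Spcs3 of the signal peptidase complex, Sec61a1, Sec61b and Sec61g of the Sec61 channel, and Ssr1, Ssr2, Ssr3 and Ssr4 of the translocon-associated protein (TRAP) complex. They were listed by Ensembl gene identifier (ID), with their symbols given in the list, and the list was drawn up with the comparison of YTHDF2-bound RNA with total RNA in view. All 10 IDs were found among the 54446 gene IDs of the count files, and all 10 passed the filter on low counts, which kept 15615 genes. Spcs1 passed it through its Input counts alone. Sec61b and Ssr2, each without a read in 1 IP library, also needed their Input counts to pass. Because the list was chosen on this comparison, the differences below are a description and carry no test of the list.

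Proteins that are secreted or placed in membranes are mostly translated at the ER surface and threaded through the Sec61 channel. The TRAP complex sits beside the channel and assists some substrates, and signal peptidase removes the signal peptide on the lumenal side. T cells use this route for cytokines and surface receptors. YTHDF2 is a cytoplasmic reader protein that binds mRNA carrying N6-methyladenosine (m6A) and promotes its decay. In RNA immunoprecipitation sequencing (RIP-seq), RNA recovered with an antibody against a protein is sequenced beside RNA of the starting lysate.

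The YTHDF2 IP group held 3 libraries of RNA precipitated with anti-mouse YTHDF2 antibody, and the Input group 3 libraries from lysate without antibody. Both came from WT CD45+ CD4+Foxp3-GFP+ Treg cells sorted from B16F10 tumors, which are subcutaneous growths of a mouse melanoma line; 10% of the lysate was kept as Input and the rest was rotated with antibody-bead conjugates for 4 hours and washed 6 times. The labels give no age, and whether the replicates are separate animals or pools is not stated, so the spread shown is that between these libraries and may be technical. A precipitation with a control antibody or from cells without YTHDF2 was not analysed here, and the sorted cell type was not checked against its markers because the files hold IDs without symbols. Gene-assigned reads numbered 6847731 to 8465453 in an IP library and 10029733 to 14704617 in an Input library. IP replicate 3 had a read for 14200 gene IDs, against 18501 and 19991 in the other IP libraries and 26250 to 33344 in the Input libraries.

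The 10 genes lie on 9 chromosomes of the mouse build GRCm38.p6, and RefSeq lists each once under its symbol. Spcs1 (ENSMUSG00000021917) spans chr14:30999826-31001666 (1841 bases) and shares 470 bases with the neighbouring gene Glt8d1. Spcs2 (ENSMUSG00000035227) spans chr7:99837569-99870340 and shares 11123 bases with Xrra1, and Ssr1 (ENSMUSG00000021427) spans chr13:37971401-37994208 and shares 3142 bases with the lncRNA gene Gm52041. Spcs3 (ENSMUSG00000054408, chr8:54520433-54529998), Sec61a1 (ENSMUSG00000030082, chr6:88503607-88518800), Sec61b (ENSMUSG00000053317, chr4:47474661-47483233), Sec61g (ENSMUSG00000078974, chr11:16501638-16508484), Ssr2 (ENSMUSG00000041355, chr3:88579608-88588420), Ssr3 (ENSMUSG00000027828, chr3:65379657-65392553) and Ssr4 (ENSMUSG00000002014, chrX:73787023-73790828) overlap no other gene in this table. The start of Ssr4 lies 126 bases from Idh3g. RefSeq lists 1 pseudogene for Spcs2 (Spcs2-ps) and 2 for Sec61g (Gm11575 and Gm4184), so reads of Spcs2 and Sec61g could be lost as non-unique or shared with these copies. It also gives Spcs3 as a synonym of other genes, Arxes1 and Arxes2. Whether Spcs3 reads were lost to or shared with these was not tested. The strand setting of the counting is not given in the sources used here. For Spcs1, Spcs2 and Ssr1, reads of the overlapping gene may therefore enter the counts, or reads in the shared bases may be set aside as ambiguous.

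RefSeq promoter windows were at hand for 7 of the 10 genes, all but Spcs3, Sec61a1 and Ssr2. The 250 bases before the start site are shown for Spcs1 and Ssr4, the genes with the largest and the smallest difference between IP and Input, and for Ssr1, which like Spcs1 has several copies of the 5-base word CCACG. This word is part of an element through which the unfolded protein response acts on promoters of ER genes. Capitals mark CCACG, or CGTGG where it lies on the other strand. The windows are chr14:31001667-31001916 on the minus strand for Spcs1, chr13:37994209-37994458 on the minus strand for Ssr1 and chrX:73786773-73787022 on the plus strand for Ssr4.
Spcs1: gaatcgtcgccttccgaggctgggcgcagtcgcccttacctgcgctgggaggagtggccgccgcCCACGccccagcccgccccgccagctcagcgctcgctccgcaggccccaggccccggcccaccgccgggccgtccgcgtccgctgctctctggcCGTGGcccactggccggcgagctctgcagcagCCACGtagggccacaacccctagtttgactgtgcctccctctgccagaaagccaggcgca
Ssr1: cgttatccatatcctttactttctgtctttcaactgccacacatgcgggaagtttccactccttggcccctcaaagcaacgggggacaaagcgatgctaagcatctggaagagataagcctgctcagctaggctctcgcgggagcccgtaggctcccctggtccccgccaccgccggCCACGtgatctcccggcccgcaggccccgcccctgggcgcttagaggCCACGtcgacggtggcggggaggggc
Ssr4: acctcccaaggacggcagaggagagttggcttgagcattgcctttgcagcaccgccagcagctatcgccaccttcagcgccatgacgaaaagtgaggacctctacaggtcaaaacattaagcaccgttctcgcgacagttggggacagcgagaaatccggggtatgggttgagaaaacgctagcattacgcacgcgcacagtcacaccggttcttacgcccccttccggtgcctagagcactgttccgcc
CCACG was present on either strand in 4 of the 7 windows (Spcs1, Spcs2, Ssr1 and Ssr3) and in 28.3% of the 32851 windows of this length in the table. CCAAT was present in 3 of the 7 (Spcs2, Sec61g and Ssr3) and in 33.8% of all windows. The words TGACGTGG and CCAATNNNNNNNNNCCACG, which contain CGTGG or CCACG, were in 0 of the 7 and in 0.563% and 0.113% of all windows. These are matches of letters only, and the libraries measure RNA bound or present, not transcription.

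For each of the 10 genes, the highest IP library lay below the lowest Input library. Levels are given as CPM, the reads of a gene per 1000000 gene-assigned reads, after scaling of the libraries by the trimmed mean of M-values (TMM). The same separation was found for 23.7% of the 15615 genes tested, with 12.8% separated the other way, and for 31.6% of the 5346 genes whose mean Input level lay within the range of the 10 genes (22.5 to 186 CPM). The median log2 fold change (IP over Input) of the 10 genes was -1.97, against -0.12 over all genes tested and -0.17 over the genes in that range. A gene is called depleted or enriched where edgeR's quasi-likelihood test gives it a p under 0.05 after Benjamini-Hochberg adjustment over all genes. By that rule 5 of the 10 were depleted (Spcs1, Spcs2, Sec61a1, Ssr1 and Ssr3) and 0 enriched. Of all genes tested, 6.11% were depleted and 4.33% enriched, and in the Input range of the list 9.80% and 6.73%. As the list was chosen on this comparison, nothing is read from its count against these shares. The comparison sets RNA recovered with the antibody against RNA of the lysate, so it does not measure how much transcript the cells held.

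**Figure D1:**
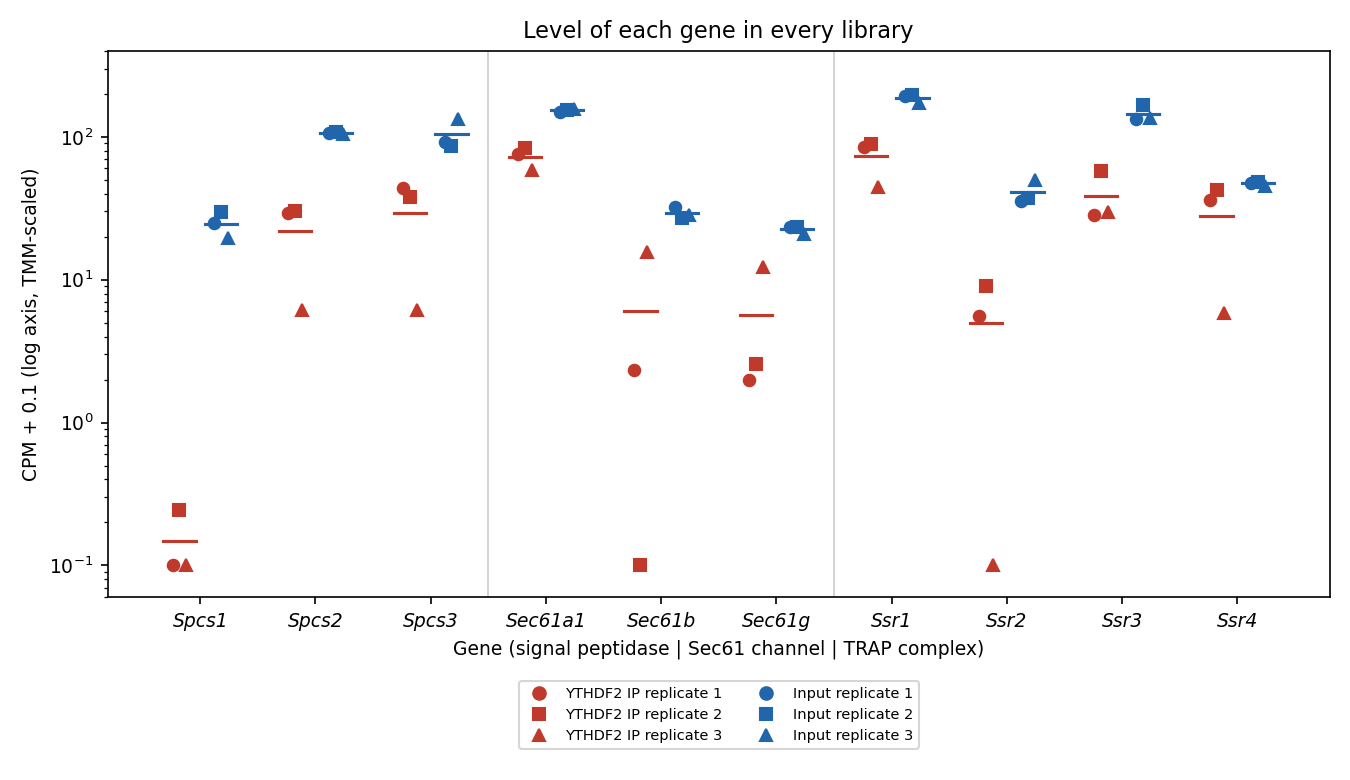
Level of each gene in every library, as CPM + 0.1 on a log axis, with IP libraries in red at the left and Input libraries in blue at the right of each gene; marker shapes give the replicate number and lines the group means. All IP points lie below all Input points of the same gene, with Spcs1 lowest in the IP and the triangles of IP replicate 3 far from the other IP libraries for Spcs2, Spcs3, Sec61b, Sec61g, Ssr2 and Ssr4.

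Among the signal peptidase genes, Spcs1 was almost absent from the IP. Spcs1, a small subunit outside the catalytic centre, had 0, 1 and 0 reads in IP replicates 1, 2 and 3, against 344, 280 and 225 reads in the Input. A count of 0 allows up to 0.351 CPM in IP replicate 1 and 0.356 CPM in IP replicate 3 (3 reads, counting error only), where the Input libraries held 19.5 to 29.5 CPM. The pooled level was 580 times higher in the Input than in the IP, and counting error alone gave a 95% Poisson interval of 104 to 22947. The fitted log2 fold change of -8.78 ± 1.22 (SE) depends on the prior count and on a single IP read; without IP replicate 2, which holds that read, it was -11.0. By fitted value Spcs1 ranked 38 of 15615 genes from the lowest. In the Input range of the list, 2 of 5346 genes, Spcs1 included, had at most 1 read over the 3 IP libraries.

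Spcs2, a subunit that contacts the Sec61 channel, was lower in the IP in every library. Its levels were 29.4, 30.3 and 6.06 CPM in IP replicates 1 to 3 and 106, 109 and 105 CPM in the Input. The Input libraries lay within a narrow band, whereas IP replicate 3 lay far below the other IP libraries. Its mean was 21.9 ± 13.8 CPM in the IP and 107 ± 1.93 CPM in the Input (SD, n = 3 each), with a log2 fold change of -2.28 ± 0.52 (SE). The gene was no longer called depleted without IP replicate 1 or without IP replicate 2, where the log2 fold change was -2.60 and -2.61.

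Spcs3, whose domain in the ER lumen is needed for signal peptidase activity in yeast, was likewise lowest in IP replicate 3. Its levels were 43.6, 38.0 and 6.06 CPM in IP replicates 1 to 3 and 91.5, 86.0 and 134 CPM in the Input. IP replicate 3 was the lowest IP library and Input replicate 3 the highest Input library, so the groups were closest in replicates 1 and 2. The means were 29.2 ± 20.2 CPM in the IP and 104 ± 26.2 CPM in the Input (SD, n = 3 each), and the log2 fold change was -1.83 ± 0.59 (SE), which did not pass the test. Without IP replicate 3 the log2 fold change was -1.38, and the gene was then called depleted. Sec11a and Sec11c, the catalytic subunits of the complex, were not analysed here, as the files do not pair IDs with symbols.

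In the Sec61 channel, the pore-forming subunit and its small partners differed in how evenly they were recovered. Sec61a1, which forms the pore, had 75.5, 83.0 and 58.1 CPM in IP replicates 1 to 3 and 148, 154 and 157 CPM in the Input. Both groups were compact, and the IP mean of 72.2 ± 12.8 CPM was 47.1% of the Input mean of 153 ± 4.42 CPM (SD, n = 3 each). The log2 fold change was -1.08 ± 0.21 (SE), and Sec61a1 was called depleted in each of the 17 alternative settings.

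Sec61b, a single-span subunit that is dispensable for the channel in yeast, varied far more over the IP libraries than over the Input libraries. It had 19, 0 and 130 reads in IP replicates 1 to 3, or 2.22, 0 and 15.4 CPM, and 32.3, 26.7 and 28.2 CPM in the Input. The count of 0 in IP replicate 2 allows up to 0.436 CPM. The coefficient of variation (CV) over the IP libraries was 142%, against 9.95% over the Input libraries, where counting error alone would give 14.2% and 5.40%. The log2 fold change of -2.30 ± 1.27 (SE) did not pass the test; without IP replicate 3 it was -4.66 and the gene was called depleted.

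Sec61g, the small subunit that braces the pore, was, like Sec61b, highest in IP replicate 3 among the IP libraries. It had 1.87, 2.47 and 12.2 CPM in IP replicates 1 to 3 and 23.2, 23.4 and 20.9 CPM in the Input. IP replicate 3 was thus the highest IP library for Sec61b and Sec61g and the lowest for Sec61a1. The log2 fold change was -2.02 ± 0.85 (SE) and did not pass the test, and without IP replicate 3 it was -3.41 and passed. The counts of Sec61g rest on uniquely aligned reads of a gene with 2 listed pseudogenes.

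**Figure D2:**
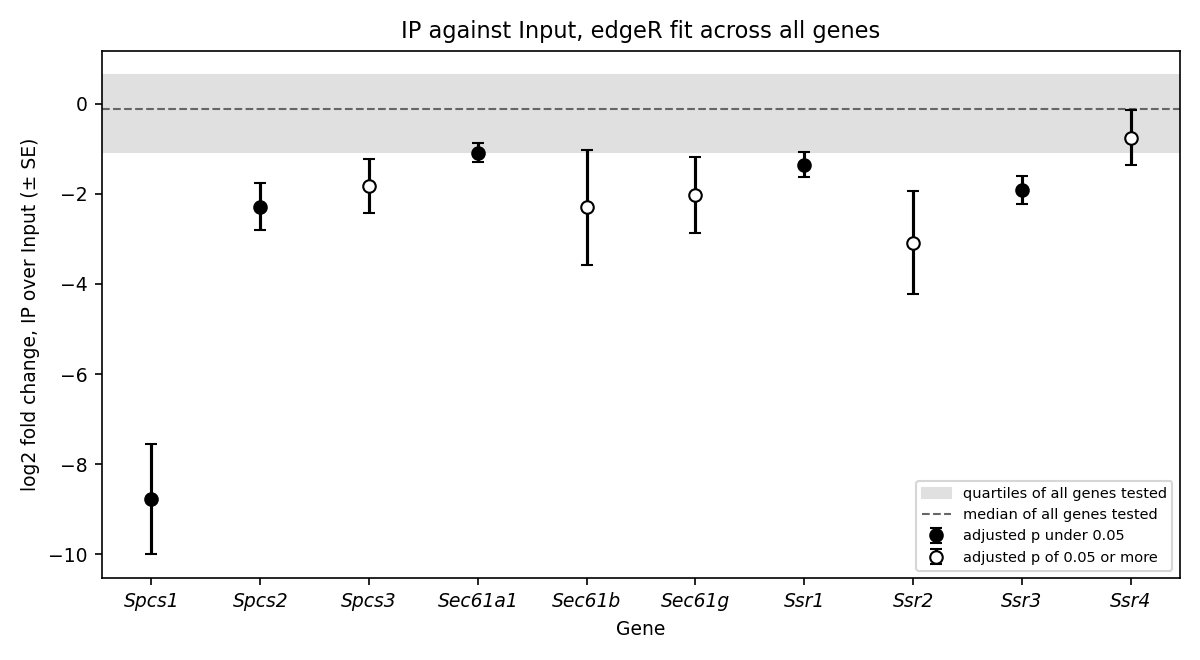
Log2 fold change of IP over Input for each gene with its standard error, from the edgeR fit across all genes; filled points had an adjusted p under 0.05, the dashed line is the median and the grey band the quartiles (-1.08 to 0.65) of all genes tested. Every gene lies below 0, from -0.75 for Ssr4 to -8.78 for Spcs1, and the open points have the widest error bars along with Spcs1.

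The TRAP genes spanned log2 fold changes from -3.08 to -0.75, and the Sec61 genes from -2.30 to -1.08. Without IP replicate 3 the Sec61 range was the wider, from -4.66 to -0.98, against -2.53 to -0.30 for TRAP. Ssr1, which encodes the alpha subunit with a domain in the ER lumen, had 84.3, 89.4 and 44.8 CPM in IP replicates 1 to 3 and 192, 195 and 171 CPM in the Input. Its groups were well apart, with an IP mean of 72.8 ± 24.4 CPM and an Input mean of 186 ± 13.1 CPM (SD, n = 3 each). The log2 fold change was -1.35 ± 0.27 (SE), and the call was kept in each of the 17 alternatives.

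Ssr3, the gamma subunit that spans the membrane several times, had 28.2, 57.2 and 29.8 CPM in IP replicates 1 to 3 and 134, 167 and 134 CPM in the Input. IP replicate 2 was highest in the IP and Input replicate 2 highest in the Input. The log2 fold change was -1.92 ± 0.32 (SE), and Ssr3 was called depleted in each of the 17 alternatives. Sec61a1, Ssr1 and Ssr3 had the smallest spread of the list over the IP libraries. Their CVs were 17.7% for Sec61a1, 33.6% for Ssr1 and 42.4% for Ssr3, against a median of 35.5% over the 5346 genes in the Input range.

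In the main setting, Ssr2, the beta subunit, had the lowest log2 fold change of the list after Spcs1. Without IP replicate 3, Sec61b (-4.66) and Sec61g (-3.41) were lower than Ssr2. Ssr2 had 47, 62 and 0 reads in IP replicates 1 to 3, and 491, 354 and 577 reads in the Input. The count of 0 in IP replicate 3 allows up to 0.356 CPM, while the same-numbered Input library was the highest of its group. Its mean was 4.83 ± 4.54 CPM in the IP and 40.9 ± 7.92 CPM in the Input (SD, n = 3 each), and the log2 fold change was -3.08 ± 1.14 (SE), which did not pass the test. Without IP replicate 3 the log2 fold change was -2.53 and the gene was called depleted, and without IP replicate 2 it was -3.91 with no call.

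Ssr4, the delta subunit, was the least reduced of the 10 genes. It had 35.7, 42.4 and 5.70 CPM in IP replicates 1 to 3 and 47.7, 48.1 and 45.4 CPM in the Input. The lowest Input library was 1.07 times the highest IP library, so the groups were separate by a narrow margin. The log2 fold change of -0.75 ± 0.61 (SE) did not pass the test in the main setting or in any of the 17 alternatives, and without IP replicate 3 it was -0.30.

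For 6 of the 10 genes IP replicate 3 lay far from the other IP libraries. Its level was 0.203 times the mean of IP replicates 1 and 2 for Spcs2, 0.148 times for Spcs3 and 0.146 times for Ssr4, and Ssr2 had no read there. In the opposite direction it was 13.9 times that mean for Sec61b and 5.63 times for Sec61g. Sec61a1, Ssr1 and Ssr3 lay between, at 0.732, 0.515 and 0.698 times. A ratio of at most 0.25 was found for 12.1% of the 5346 genes in the Input range and for 5 of the 10 listed genes, Spcs1 included with 0 reads against 0 and 1. A ratio of at least 4 was found for 1.20% of these genes and for 2 of the 10. IP replicate 3 also had no read for 4.79% of the 5346 genes, against 0.299% in IP replicate 1 and 0.468% in IP replicate 2; the part of this loss of genes in the values of the listed genes was not tested. Without IP replicate 3, 9 of the 10 genes were called depleted, all but Ssr4, where 8.73% of the 19027 genes then tested were.

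**Figure D3:**
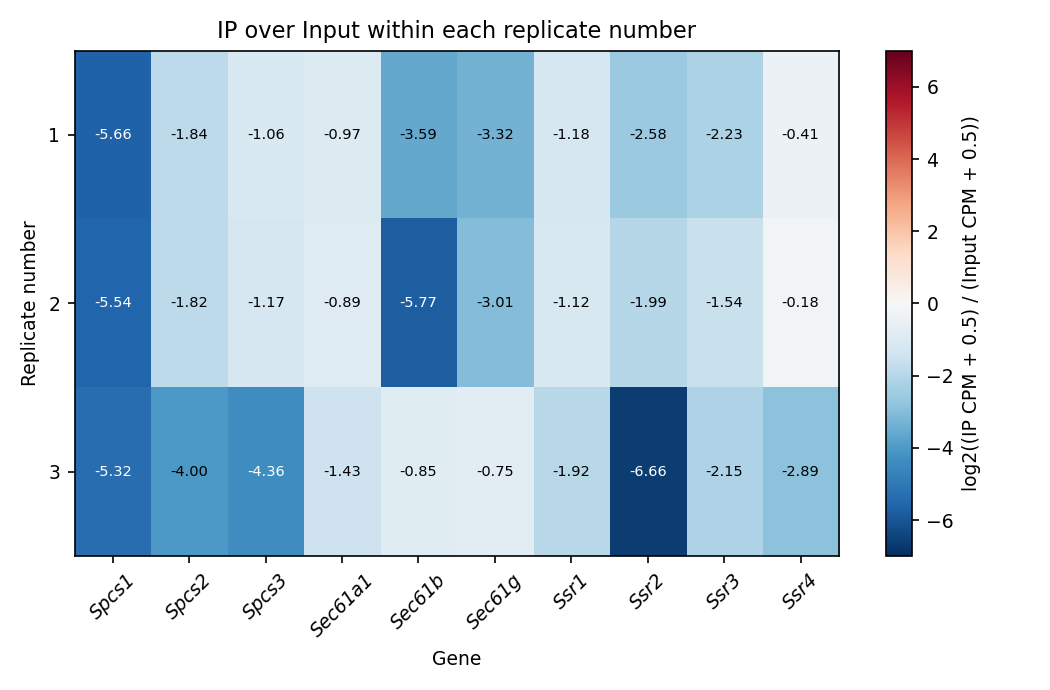
Log2 of the IP level over the Input level (CPM + 0.5 each) within each replicate number, with genes in columns and replicate numbers 1 to 3 in rows; blue is below 0. All 30 cells are below 0, which the separation of the groups for each gene requires. In row 3 Sec61b (-0.85) and Sec61g (-0.75) are nearest to 0, while Spcs2 (-4.00), Spcs3 (-4.36), Ssr2 (-6.66) and Ssr4 (-2.89) are each lower than in rows 1 and 2.

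Within each replicate number, all 30 ratios of IP to Input were below 0 on the log2 scale with 0.5 CPM added to both levels. The sign follows from the separation of the groups given above and adds nothing to it, so only the sizes are described. For Spcs2 they were -1.84, -1.82 and -4.00 in replicates 1 to 3, and for Spcs3 -1.06, -1.17 and -4.36. For Sec61b they were -3.59, -5.77 and -0.85, and for Sec61g -3.32, -3.01 and -0.75. The first pair was thus most reduced in replicate 3 and the second pair least reduced there. The ratios of Sec61a1 lay closer together, at -0.97, -0.89 and -1.43, as did those of Spcs1, at -5.66, -5.54 and -5.32, which rest on 1 IP read and the added 0.5 CPM. The labels do not say that libraries of equal number share a lysate.

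Summed over subunits, the reads of the 3 complexes differed in how even they were over the IP libraries. The Sec61 channel genes summed to 79.6, 85.5 and 85.7 CPM in IP replicates 1 to 3 and to 204, 204 and 206 CPM in the Input, so that the opposite deviations of its subunits left a nearly constant sum. The signal peptidase genes summed to 73.0, 68.5 and 12.1 CPM in the IP and to 223, 224 and 258 CPM in the Input. The TRAP genes summed to 154, 198 and 80.3 CPM in the IP and to 409, 448 and 401 CPM in the Input. The IP mean was 40.8% of the Input mean for the Sec61 channel, 34.4% for TRAP and 21.8% for signal peptidase. These sums weigh each subunit by its reads. Sec61a1 took 86.6% ± 16.4 of the channel's reads in the IP and 74.8% ± 1.79 in the Input (SD, n = 3 each). Its own level was nevertheless lowest in IP replicate 3 (58.1 CPM), where the channel's sum was highest.

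**Figure D4:**
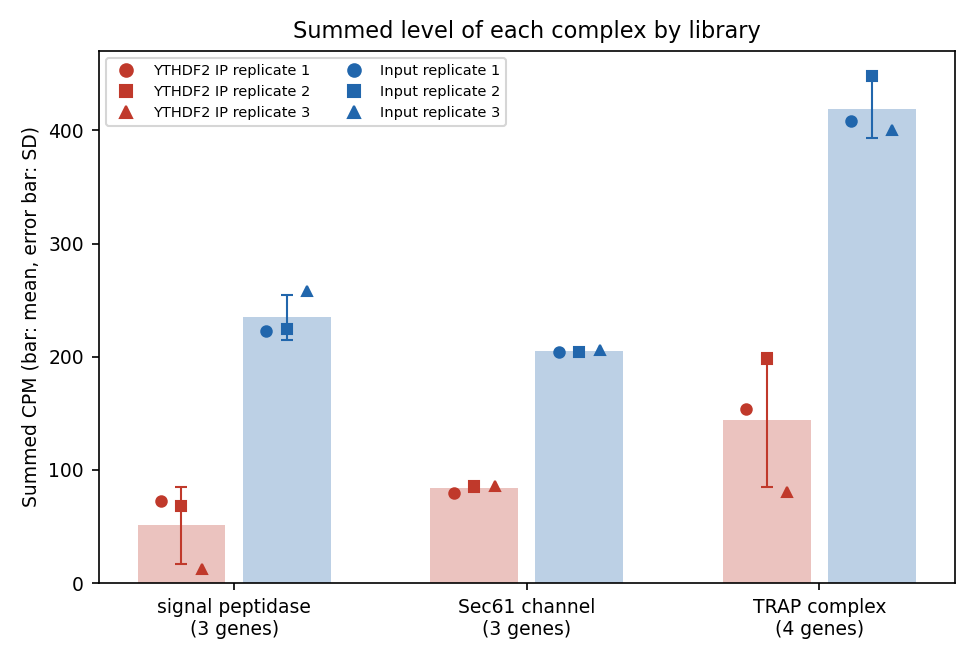
Summed CPM of the genes of each complex in every library, with bars for the group mean, error bars for the SD (n = 3 each) and marker shapes for the replicate number. The IP bars (51.2, 83.6 and 144 CPM for signal peptidase, Sec61 channel and TRAP) lie below the Input bars (235, 205 and 419 CPM), and the IP points of the Sec61 channel lie close together.

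The share of its complex's reads was separate between the groups for Spcs1 and Ssr2, and overlapped for the other subunits. Spcs1 took 0.0706% ± 0.122 of the signal peptidase reads in the IP and 10.6% ± 2.85 in the Input (SD, n = 3 each). Ssr2 took 3.58%, 4.55% and 0% of the TRAP reads in IP replicates 1 to 3 and 8.66%, 8.34% and 12.5% in the Input. Ssr4 took 23.2%, 21.4% and 7.10% of them in the IP and 11.7%, 10.7% and 11.3% in the Input, so it stood above its Input share in IP replicates 1 and 2 and below it in IP replicate 3. Ssr1 took 54.8%, 45.2% and 55.8% in the IP and 46.9%, 43.6% and 42.7% in the Input. Transcript lengths were not at hand, so these shares and the sums do not show which transcript of a complex was the more abundant. The shares above set each gene's reads against all reads of its complex. A share can thus be higher in the IP while the gene's own level is lower, as for Ssr4 in IP replicates 1 and 2.

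Together the 10 genes took 0.0285% ± 0.00830 of gene-assigned reads in the IP and 0.0814% ± 0.00232 in the Input (SD, n = 3 each). By library this was 0.0309%, 0.0354% and 0.0193% in IP replicates 1 to 3 and 0.0788%, 0.0828% and 0.0828% in the Input. When all 15615 genes were ranked from the lowest log2 fold change, Ssr2 stood at rank 978, Sec61b at 1558, Spcs2 at 1577, Sec61g at 1891, Ssr3 at 2049 and Spcs3 at 2182. Ssr1 at rank 3134, Sec61a1 at 3879 and Ssr4 at 4991 stood nearer to the middle of the distribution. Apart from Spcs1, the genes lay in the lower part of the distribution and not at its end.

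**Figure D5:**
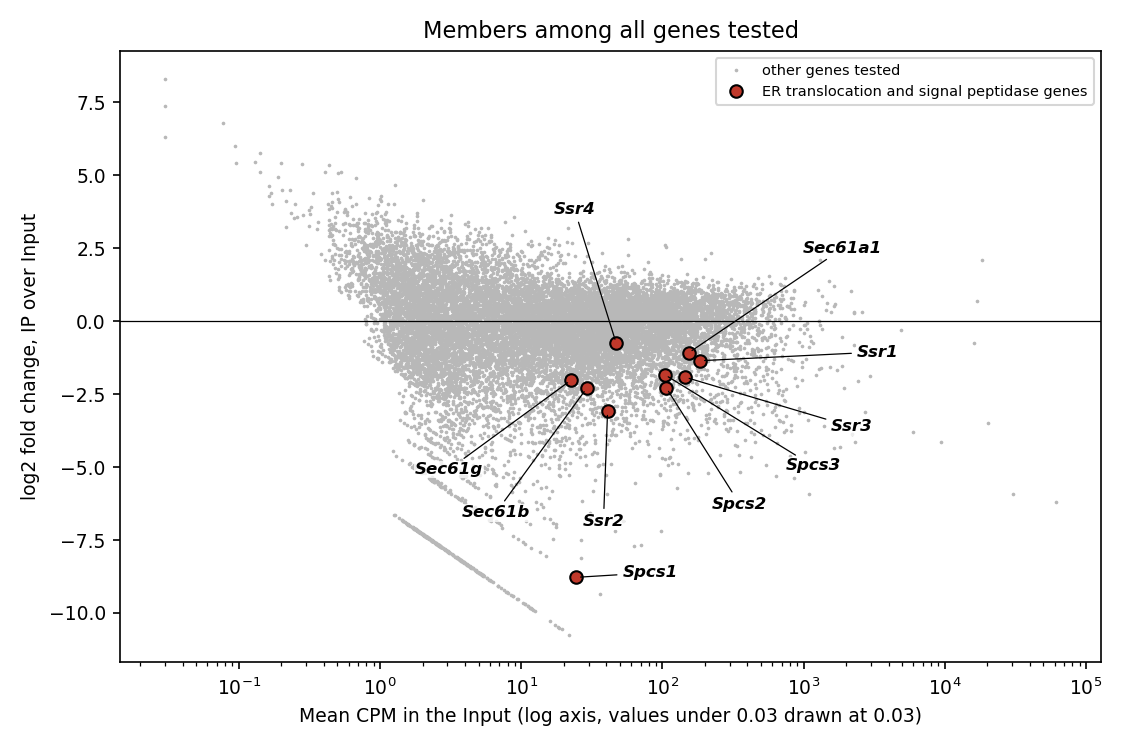
Log2 fold change of IP over Input against the mean Input level (CPM, log axis) for all 15615 genes tested in grey and the 10 listed genes in red. The listed genes lie below 0 between 22.5 and 186 CPM, 9 of them within the cloud of other genes. Spcs1 lies far below these 9 at -8.78, at rank 38 of the 15615 genes from the lowest.

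The mean profile of the 10 genes over the 6 libraries was compared with that of 8659 other genes averaging 10 CPM or more, by Euclidean distance of log2(CPM + 0.5) centred on each gene's mean. The nearest was the gene ID ENSMUSG00000094655.1. That ID, which the files do not name, had 12.1, 11.5 and 7.13 CPM in IP replicates 1 to 3 and 52.6, 57.5 and 63.4 CPM in the Input, at a distance of 0.212. The next, ENSMUSG00000022312.11, had 45.6, 44.6 and 25.3 CPM in the IP and 250.2, 233 and 209 CPM in the Input, at a distance of 0.229. The listed genes themselves lay farther from their own mean, from 1.04 for Ssr3 to 4.22 for Sec61b, so the mean profile stands for no single one of them.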

How the data were processed

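RNA of 3 YTHDF2 IP and 3 Input libraries was measured by RIP-seq. The authors deposited 1 file per library with raw counts of reads per Ensembl gene ID. The build mm10 and the tools HISAT2 2.1.0, Trimmomatic 0.39, DESeq2 and HTSeq are named, without their roles, per the submitters' processing notes. Their strand setting, annotation release and treatment of duplicates are not stated there. Of the 54446 gene IDs, 92 spike-in IDs (0 to 2 reads per library) and 5 HTSeq summary categories in a file, only the gene IDs were used for library sizes and testing. The category without a feature held 71.2% to 72.1% of an IP file and 49.6% to 51.6% of an Input file, non-unique alignments 2.88% to 3.35% and 9.18% to 9.65%, and ambiguous reads 0.396% to 0.418% and 1.21% to 1.25%.

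The counts were tested with edgeR 4.0.16 under R 4.3.3 (robust quasi-likelihood F-test after filterByExpr and TMM, group as the only term, two-sided, Benjamini-Hochberg over all genes tested). The procedure was tested on simulated data. CPM values use TMM-scaled library sizes and were computed here from the deposited counts; standard errors derive from the F statistics. Intervals and floors of 3 reads cover counting error only, as the reads carry no molecular identifiers here. The members and lists were chosen with earlier results of these data known. All 10 members were named; genes of like profile were ranked by distance and 2 IDs printed. Symbols came with the list, and RefSeq tables of GRCm38.p6 were matched by symbol (10 of 10), since 0 of their 49997 entries hold an Ensembl ID. For that reason the other lists fixed by symbol (remaining signal peptidase and translocon genes, signal recognition particle, oligosaccharyltransferase, ER membrane protein complex, tail-anchored insertion, ER chaperones and cell type markers) were not analysed here. The words searched in promoters were chosen after the windows were at hand. Other size factors, filters and tests (DESeq2 1.42.0, limma 3.58.1), a replicate block and leaving out each library were tried. Pairing by number was not assumed, as the labels do not say that equal numbers share a lysate. Libraries with the same number deviated from their group means with correlations of 0.115, 0.0332 and 0.0245. With 3 libraries per group, these values cannot decide whether lysates were shared.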

Additional observations from a re-analysis of the deposited data

Results flagged for a closer look

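Reads in no annotated feature, which lie outside the gene counts, averaged 71.7% in the IP files and 50.4% in the Input files. They ranged from 71.2% to 72.1% over the IP libraries and from 49.6% to 51.6% over the Input libraries.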

How the results depend on the processing

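All 10 genes kept a log2 fold change below 0 in every alternative that tested them. The filter of 1 CPM in all libraries left out Spcs1, Sec61b and Ssr2. Of the 10 genes, 5 were depleted in the main setting, 6 with library sizes from all reads and 7 with DESeq2 or limma voom. The count was 8 with no filter beyond 1 read and 4 to 9 when 1 library was left out, with 9 without IP replicate 3. None was enriched in any setting. Of all genes tested, 6.11% were depleted in the main setting, 11.7% with all reads, 9.93% with DESeq2 and 11% with limma voom. The share was 3.29% of 40072 genes with no filter beyond 1 read, and 3.26% to 8.73% when 1 library was left out. As the list was chosen on this comparison, nothing is read from its counts against these shares. Spcs1 was called depleted in 16 of 16 alternatives, Spcs2 in 15 of 17, Spcs3 in 6 of 17, Ssr2 in 4 of 16, Sec61b in 2 of 16 and Sec61g in 1 of 17. For the list as a whole, the median log2 fold change was -2.48 with library sizes from all reads, against -1.97, and -2.10 to -1.84 when 1 library was left out. Over all genes, 676 were enriched in the main setting, 1081 with upper quartile factors, 155 with library sizes from all reads, 1030 with 1 CPM in all libraries, 1259 with DESeq2 and 188 to 999 when 1 library was left out. Depleted genes numbered 954 in the main setting, 1924 with library sizes from all reads, 1551 with DESeq2, 1715 with limma voom and 563 to 1661 when 1 library was left out. The cause was not tested. Enriched genes were 57.4% of calls with upper quartile factors, 51.8% with total counts, 7.46% with library sizes from all reads and 41.5% with TMM. Relative to the main setting, genes moved by a median log2 of 0.20 with upper quartile factors, 0.11 with total counts and -0.53 with all reads. With TMM kept, they moved by -0.15 with limma voom and -0.14 with a replicate block. The replicate block gave 833 enriched and 1095 depleted genes and 5 depleted genes of the list, and the highest correlation of every library was with the one of its own number. Settings for lists that need other symbols were not run.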
